A study of Mus musculus with 48 samples.

Results

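The fatty acid elongases Elovl1 to Elovl7 were followed in mouse skin after treatment with inhibitors of DGAT1, the acyltransferase that makes triglyceride from diacylglycerol. Members were all probesets, the sets of array probes that report 1 transcript each, whose only gene symbol in the probe annotation was Elovl1 to Elovl7. This gave 8 of 38385 probesets, 1 for each gene and a second for Elovl6. Of these, 7 were among the 28789 probesets bright enough to be tested, and Elovl2 was not.

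Total RNA from skin of 48 mice was hybridised to custom Affymetrix arrays, 1 array per mouse, in 3 studies with their own vehicle groups. In Study 1, Cpd2 and Cpd1 were compared with vehicle in groups of 8 mice. In Study 2, Cpd2 and Cpd6 were compared with vehicle in groups of 4 mice, and in Study 4, Cpd6 and Cpd18 were compared with vehicle in groups of 4 mice. All 9 groups were C57BL/6 mice, labelled as 8 weeks of age and dosed for 14 days, and the methods describe males made obese with a high fat diet and dosed by mouth, with methylcellulose as the vehicle. Thus every group, vehicle included, carried diet-induced obesity. The labels name dorsal skin for every array, whereas in the methods skin was taken from the back, the belly or both. By the histology of the study, Cpd2 and Cpd6 are skin-positive, that is, they cause atrophy of the sebaceous glands, while Cpd1 and Cpd18 do not and are called skin-negative. The methods give Cpd2, Cpd6 and Cpd18 the same dose, which need not be the same exposure. The paper's text gives Cpd1 a lower dose than Cpd2 beside the histology and a common dose beside the compound levels, and names none for the arrays. The Cpd1 mice may therefore have had less compound, and Cpd2 and Cpd1 are set side by side without a test between them.

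Elongases catalyse the first step of a cycle in the endoplasmic reticulum that lengthens an activated fatty acid by a pair of carbons. The 7 mammalian enzymes differ in the chains they accept. ELOVL1, ELOVL3, ELOVL6 and ELOVL7 act mainly on saturated and monounsaturated chains, ELOVL2 and ELOVL5 act on polyunsaturated chains, and ELOVL4 makes the longest ones. In skin, very long chains are used for the wax and sterol esters of sebum and for the ceramides of the epidermal water barrier. Mice without Elovl3 have sparse hair and abnormal sebum, and mice without Elovl4 lack the acylceramides of the barrier and die as newborns.

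The probesets of Elovl4 (NM_148941), Elovl5 (NM_134255) and Elovl6 (NM_130450) averaged 12.25, 12.47 and 12.02 on the log2 intensity scale over the 48 arrays. The Elovl6 probeset built on AK029029 averaged 11.35, the Elovl7 probeset (NM_029001) 10.60, the Elovl3 probeset (NM_007703) 9.01 and the Elovl1 probeset (NM_019422) 6.10. The Elovl2 probeset (NM_019423) averaged 2.40, under the limit of 2.93 set for testing, with group means between 2.19 and 2.54. Intensities of different probesets depend on the probes as well as on the RNA, so these values do not rank the genes by abundance. In the GRCm38.p6 annotation of RefSeq, Elovl4 lies at chr9:83778692-83806305 and Elovl5 at chr9:77917365-77984519. Elovl1 lies at chr4:118426874-118432953, Elovl3 at chr19:46131897-46135694 and Elovl6 at chr3:129532386-129638495. Elovl2, at chr13:41182382-41220403, and Elovl7, at chr13:108214326-108287109, share chromosome 13.

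The promoters of Elovl4 and Elovl5 are shown because no other members were called lower in all of 3 comparisons, Cpd2 against vehicle in Study 1, Cpd6 against vehicle in Study 4 and Cpd6 against Cpd18. Each window, from RefSeq and GRCm38.p6, runs 5′ to 3′ on the strand of the gene, with 250 bases before the start of transcription and 50 after it. Capitals mark matches, on either strand, to the E-box CACGTG, to CCAAT (read as ATTGG on the other strand) or to the cyclic AMP response element TGACGTCA. The first is chr9:83806256-83806555 on the minus strand and the second chr9:77917115-77917414 on the plus strand.
Elovl4: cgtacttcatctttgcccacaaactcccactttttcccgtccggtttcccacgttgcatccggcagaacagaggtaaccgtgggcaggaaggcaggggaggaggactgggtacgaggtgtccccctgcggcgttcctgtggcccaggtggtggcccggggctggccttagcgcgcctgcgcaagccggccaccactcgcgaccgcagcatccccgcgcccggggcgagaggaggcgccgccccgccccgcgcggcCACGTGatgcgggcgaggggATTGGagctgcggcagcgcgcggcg
Elovl5: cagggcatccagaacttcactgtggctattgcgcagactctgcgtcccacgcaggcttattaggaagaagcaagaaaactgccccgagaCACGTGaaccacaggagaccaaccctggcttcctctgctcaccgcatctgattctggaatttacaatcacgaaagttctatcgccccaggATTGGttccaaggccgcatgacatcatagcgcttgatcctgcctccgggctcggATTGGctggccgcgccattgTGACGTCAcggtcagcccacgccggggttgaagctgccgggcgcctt
Both windows hold an E-box, with its first base at position 6 from the start in Elovl4 and at position -161 in Elovl5. Elovl4 has 1 CCAAT match on its minus strand and Elovl5 has 2, and Elovl5 also has the cyclic AMP response element at position 4. Of 32851 promoter windows of the same length, 7.15% held CACGTG, 37.4% CCAAT and 1.79% TGACGTCA. The sterol regulatory element TCACNCCAC, the site type of the SREBP factors that drive lipid synthesis genes, was found in 1.24% of all windows and in 0 of the 8 windows of Elovl genes. Those 8 windows cover 6 genes. In the windows of Elovl1, Elovl2, Elovl6 and Elovl7 the only match was 1 CCAAT, in Elovl1, and Elovl3 is not in the table used. A match says only that these letters are present.

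Array medians lay between 26.4 and 30.8 intensity units. The compounds act on the enzyme, so Dgat1 RNA is no check of the labels. Its log2 fold change was -0.60 ± 0.15 (SE, adjusted p = 0.00636, limma) with Cpd2 in Study 1 and between -0.23 and 0.16, none called, in the other 5 comparisons with vehicle. Cell type marker lists were also described, each taken as the mean log2 intensity of its genes. The 14 sebaceous gland markers, of which Scd3 and Aox4 are also marker genes of the study, averaged 7.88 ± 0.34 in Cpd2 mice and 8.65 ± 0.07 in Cpd1 mice against 8.58 ± 0.17 in vehicle mice of Study 1 (SD, n = 8 each). In Study 2 they averaged 8.00 ± 0.14 with Cpd2 and 7.83 ± 0.20 with Cpd6 against 8.49 ± 0.08 with vehicle, and in Study 4 Cpd6 mice averaged 7.72 ± 0.13 and Cpd18 mice 8.35 ± 0.14 against 8.42 ± 0.11 in vehicle mice (SD, n = 4 each). The Study 1 mean with Cpd2 leaned on Scd3 and Aox4, with log2 fold changes of -3.68 and -2.97. The other genes of the list lay between -1.03 for Awat1 and 0.33 for Prdm1. Among them Krt79 (0.22), Muc1 (0.18) and Prdm1 had positive values, and none of these was called. In Study 2 and Study 4 the lower means leaned on Scd3, Aox4 and Rnase12. With Cpd6 these had -2.37, -2.92 and -1.99 in Study 2 and -2.11, -2.64 and -2.12 in Study 4. The other genes with Cpd6 lay between -1 and 0.45 in Study 2 and between -0.98 and 0.19 in Study 4. With Cpd2 in Study 2 the values were -1.81, -2.02 and -1.6, and the other genes lay between -0.62 and 0.51. Rnase12 was called only with Cpd6 in Study 4. Besides, the 21 skeletal muscle markers averaged 8.94 ± 2.38 in Cpd2 mice and 11.44 ± 0.68 in vehicle mice of Study 1. Of the 21, 20 were called lower, beside 6.00% of all tested probesets. The 14 hair follicle growth markers ranged from 4.11 to 10.61 within the vehicle mice of Study 1 alone.

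Across the 9 groups, Elovl5 and Elovl4 were the members with gaps between neighbouring group means. The highest Elovl5 group means were 12.88 ± 0.05 in Cpd1 mice of Study 1, 12.82 ± 0.19 in vehicle mice of Study 1, 12.65 ± 0.12 in Cpd18 mice of Study 4, 12.65 ± 0.12 in vehicle mice of Study 2 and 12.63 ± 0.05 in vehicle mice of Study 4. Then came 12.21 ± 0.02 in Cpd2 mice of Study 2, and 12.04 ± 0.05 in Cpd6 mice of Study 4, 12.03 ± 0.25 in Cpd2 mice of Study 1 and 11.96 ± 0.15 in Cpd6 mice of Study 2. In this order only 2 of 8 neighbouring pairs differed by more than the sum of their SDs, namely the fifth against the sixth group and the sixth against the seventh. The 4 groups given a skin-positive compound were thus the 4 lowest, and the neighbours within the upper 5 and within the lower 3 did not differ beyond their spread. The study chose Elovl5 as a marker for its fall with Cpd2 and Cpd6 in Study 1 and Study 2, without a change with Cpd1. The places of these groups are therefore not independent evidence, and only Study 4 had no part in that choice.

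Elovl4 was ordered by study as well as by compound. It averaged 12.61 ± 0.20 in vehicle mice of Study 1, 12.47 ± 0.11 in vehicle mice of Study 2 and 12.01 ± 0.04 in vehicle mice of Study 4. The lowest group was Cpd6 in Study 4 at 11.72 ± 0.09, below its neighbour by more than the sum of the SDs. The other gap of this kind lay between vehicle mice of Study 2 and Cpd2 mice of Study 2, at 12.27 ± 0.07. In contrast, no neighbouring groups of Elovl1, Elovl2, Elovl3, Elovl6 or Elovl7 were apart by that much. The group means of Elovl3 still spanned 1.31 log2 units and those of Elovl7 1.08 log2 units. Study and array batch cannot be told apart, so levels are compared below within a study.

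**Figure D1:**
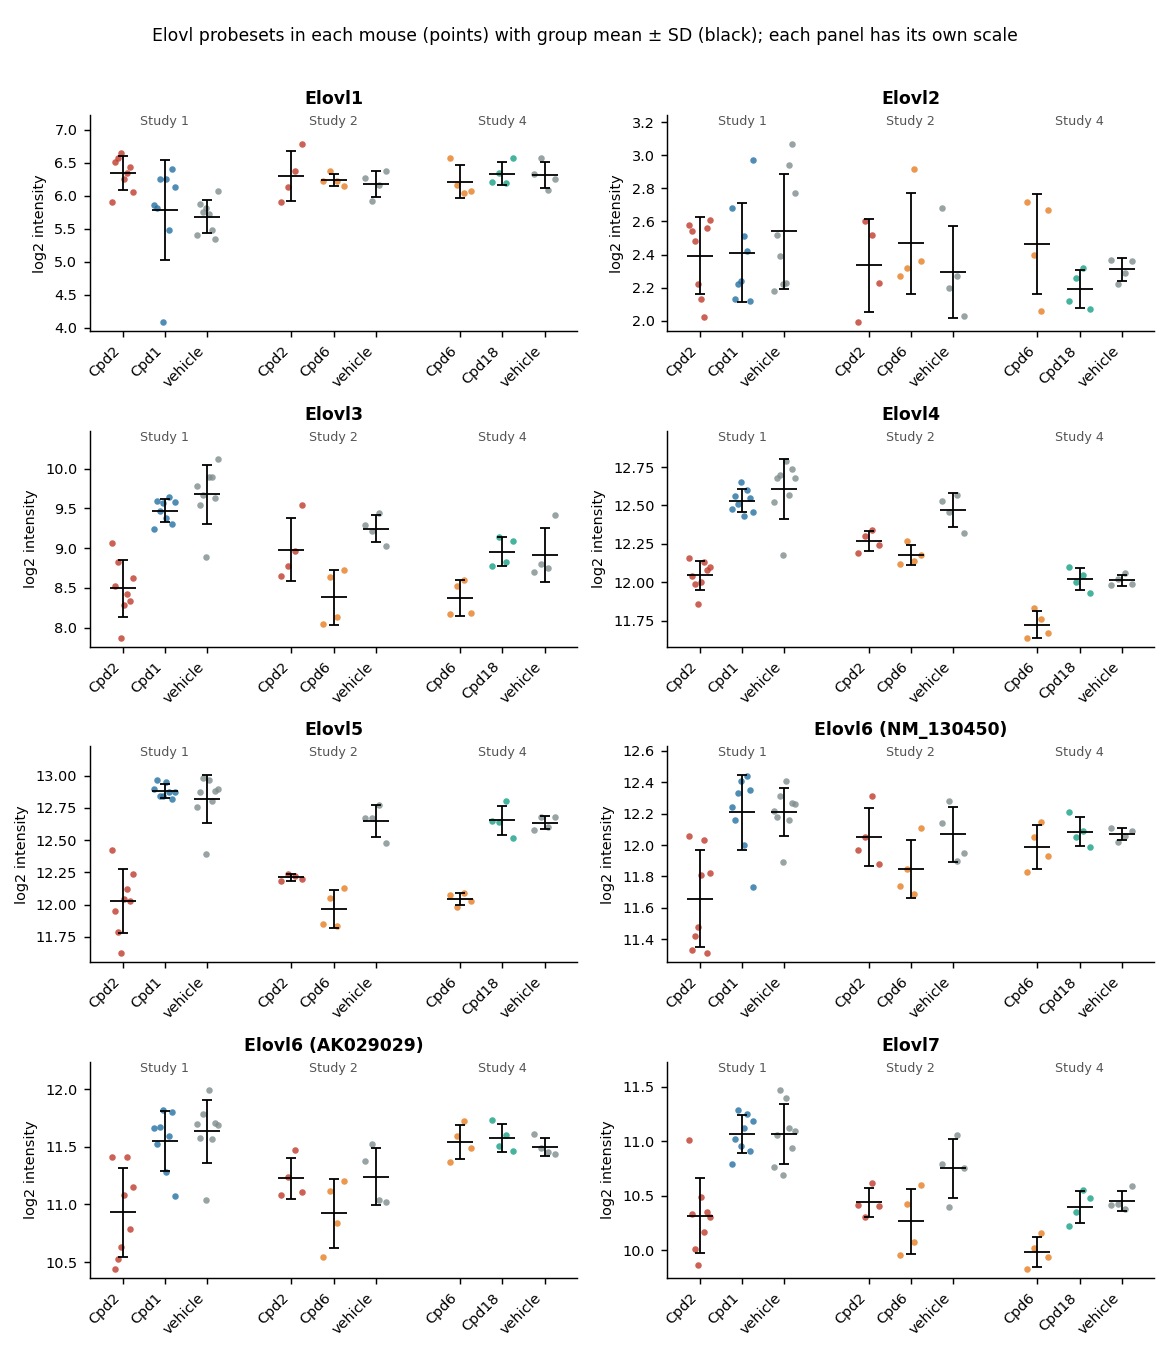
Log2 intensity of each Elovl probeset (vertical axes, each panel with its own scale) in every mouse, by compound within Study 1, Study 2 and Study 4. Points are mice and the black marks are group means ± SD. Elovl5 was lower with Cpd2 and with Cpd6 than with vehicle in all studies that used them, while Cpd1 mice of Study 1 and Cpd18 mice of Study 4 overlapped with vehicle mice. Elovl5 is a marker that the study chose on the mice of Study 1 and Study 2.

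The first question was whether skin-positive Cpd2 changed elongase RNA. In Study 1, 6 of the 7 tested probesets, covering Elovl3, Elovl4, Elovl5, Elovl6 and Elovl7, were lower with Cpd2 than with vehicle, and Elovl1 did not pass the test. Over all tested probesets, 13.1% were called in either direction and 6.00% were called lower. The median log2 fold change was -0.70 over the 7 Elovl probesets and 0.04 over all tested probesets. Skin was measured in bulk, so fewer cells of a type and less RNA per cell cannot be told apart.

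Among the elongases of saturated and monounsaturated chains, Elovl3, which is made in sebaceous glands, showed the largest fall. The lowest, median and highest of its log2 intensities were 7.87, 8.47 and 9.07 in the 8 Cpd2 mice, against 8.89, 9.73 and 10.12 in the 8 vehicle mice. Most Cpd2 mice lay below all vehicle mice, and the overlap came from 1 low vehicle mouse. The log2 fold change was -1.18 ± 0.15 (SE, adjusted p = 5.47e-06, limma), which left 44% of the vehicle level. Elovl7, an elongase of long saturated chains, had 9.87, 10.32 and 11.01 in Cpd2 mice against 10.69, 11.08 and 11.47 in vehicle mice. These groups overlapped through 1 Cpd2 mouse, and the log2 fold change was -0.75 ± 0.13 (adjusted p = 0.000239, limma). Elovl6, which turns palmitate into stearate, had 11.31, 11.65 and 12.06 in Cpd2 mice against 11.89, 12.24 and 12.41 in vehicle mice with probeset NM_130450. With probeset AK029029 it had 10.44, 10.94 and 11.41 in Cpd2 mice against 11.04, 11.70 and 11.99 in vehicle mice. Both Elovl6 probesets overlapped between groups. Their log2 fold changes were -0.55 ± 0.11 (adjusted p = 0.00149) and -0.70 ± 0.14 (adjusted p = 0.00151, limma), so they gave the same direction and similar sizes.

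Elovl5, the elongase of polyunsaturated chains, had 11.62, 12.03 and 12.42 in Cpd2 mice against 12.39, 12.87 and 12.98 in vehicle mice. The groups touched only at the lowest vehicle mouse, and the log2 fold change was -0.79 ± 0.09 (SE, adjusted p = 1.14e-06, limma). Elovl5 is one of the marker genes that the study chose on the mice of Study 1 and Study 2, so its change in these 2 studies is not independent evidence. Elovl4, the elongase of the longest chains, had 11.86, 12.06 and 12.16 in Cpd2 mice against 12.18, 12.68 and 12.79 in vehicle mice. All 8 Cpd2 mice lay below all 8 vehicle mice, and the log2 fold change was -0.56 ± 0.07 (adjusted p = 2.72e-06, limma). Elovl1, an elongase of saturated chains that feed ceramide synthesis, lay in the other direction. It had 5.91, 6.39 and 6.65 in Cpd2 mice against 5.34, 5.73 and 6.08 in vehicle mice, with overlapping groups. Its log2 fold change was 0.66, with a 95% interval of 0.19 to 1.12 and an adjusted p of 0.0536 (limma), just outside the threshold of 0.05. It passed in 11 of 29 alternative settings.

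Elovl6 lost its calls when the mice with low muscle markers were left out. Replicates 3, 4 and 7 of Cpd2 in Study 1 had the lowest muscle levels, 5.55, 7.31 and 6.40, against 9.80 to 11.82 in vehicle mice. Without these 3 mice, 4 Elovl probesets were called, beside 1339 of all tested probesets against 3769 with all mice, and the Elovl6 probesets had log2 fold changes of -0.40 (adjusted p = 0.0538) and -0.53 (adjusted p = 0.0502, limma). With the muscle level as a covariate, they had -0.26 (adjusted p = 0.215) and -0.33 (adjusted p = 0.216). Elovl3, Elovl4, Elovl5 and Elovl7 were called in 29 of 29 alternative settings, these 2 included. In Cpd2 mice of Study 1, 4 of 14 sebaceous genes were called lower, beside 1728 of all 28789 tested probesets. Of 9 T cell genes, 6 were called higher, beside 2041 of all 28789. The part of these cells in the Elovl values was not tested.

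Cpd1, the skin-negative compound of Study 1, was compared with the same vehicle mice. No Elovl probeset was called (0 of 7, and 0 of 7 at an unadjusted p under 0.05), beside 0.327% of all tested probesets. The log2 fold changes lay between -0.21 for Elovl3 and 0.10 for Elovl1, and the lowest adjusted p was 0.564 (limma). Elovl3 had a lowest, median and highest value of 9.24, 9.52 and 9.64 in Cpd1 mice, inside the range of vehicle mice. Elovl5 had 12.82, 12.87 and 12.97 in Cpd1 mice, again inside the vehicle range. Side by side, the interval for Elovl5 was -0.97 to -0.61 with Cpd2 and -0.12 to 0.24 with Cpd1. For Elovl3 it was -1.48 to -0.89 with Cpd2 and -0.51 to 0.09 with Cpd1. The markers of the study also had to be unchanged with Cpd1 in these same mice. The Elovl5 values with Cpd1 are therefore not independent evidence either. The groups of Study 1 also differed in 8 Hox genes whose levels mark position along the body. Their mean was 7.39 ± 0.11 in Cpd1 mice (7.26 to 7.54) and 6.36 ± 0.42 in Cpd2 mice (5.63 to 7.05), against 6.43 ± 0.29 in vehicle mice (5.90 to 6.75; SD, n = 8 each). The Cpd1 mice did not overlap with either other group of Study 1 and lay at the level of Study 2 and Study 4, whose group means were 7.10 to 7.35. With Cpd1, 4 of the 8 genes were called higher, beside 71 of all 28789 tested probesets. The part of this difference in Hox genes in the Elovl values was not tested.

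Study 2 repeated Cpd2 and added Cpd6, a second skin-positive compound, in groups of 4 mice. With Cpd2, Elovl5 alone was lower, 1 of 7 beside 0.129% of all tested probesets called and 0.0868% called lower. Its values were 12.18, 12.24, 12.22 and 12.20 in Cpd2 mice against 12.67, 12.67, 12.77 and 12.48 in vehicle mice. All Cpd2 mice lay below all vehicle mice, and the log2 fold change was -0.44 ± 0.08 (SE, adjusted p = 0.0454, limma). This call was close to the threshold and passed in 7 of 20 alternative settings. Elovl4 had 12.19, 12.30, 12.34 and 12.24 in Cpd2 mice against 12.53, 12.46, 12.57 and 12.32 in vehicle mice, a log2 fold change of -0.21 (adjusted p = 0.423). The log2 fold changes of Elovl3 and Elovl7 were -0.26 (adjusted p = 0.844) and -0.31 (adjusted p = 0.685), and those of both Elovl6 probesets were -0.01.

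With Cpd6 in Study 2, Elovl5 was again the only member called lower, 1 of 7 beside 0.379% of all tested probesets called and 0.288% called lower. It had 11.85, 12.05, 11.83 and 12.13 in Cpd6 mice, all below the 4 vehicle mice. The log2 fold change was -0.68 ± 0.08 (SE, adjusted p = 0.000470, limma). Elovl3 had 8.04, 8.64, 8.13 and 8.72 in Cpd6 mice against 9.29, 9.22, 9.44 and 9.03 in vehicle mice. Elovl4 had 12.12, 12.27, 12.14 and 12.18 in Cpd6 mice against the vehicle values given above. For both genes all Cpd6 mice lay below all vehicle mice, yet neither passed the adjusted threshold, with log2 fold changes of -0.86 (adjusted p = 0.0766) and -0.29 (adjusted p = 0.0785). Elovl7 had a log2 fold change of -0.49 (adjusted p = 0.180) and the Elovl6 probesets had -0.22 (adjusted p = 0.489) and -0.31 (adjusted p = 0.429), all with overlapping groups. Hair follicle markers differed in level between these groups, at 5.46 ± 1.31 with Cpd2 and 4.79 ± 0.86 with Cpd6 against 8.27 ± 2.59 with vehicle (SD, n = 4 each). With their level as a covariate, Elovl5 with Cpd2 had a log2 fold change of -0.48 and an adjusted p of 0.196.

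Study 4 tested Cpd6 beside skin-negative Cpd18, on mice that had no part in the choice of the marker genes. Cpd6 lowered 4 of the 7 tested probesets, Elovl3, Elovl4, Elovl5 and Elovl7, beside 10.7% of all tested probesets called and 6.17% called lower. Elovl5 had 12.07, 11.98, 12.09 and 12.03 in Cpd6 mice and 12.65, 12.64, 12.80 and 12.52 in Cpd18 mice, against 12.58, 12.68, 12.60 and 12.68 in vehicle mice. All Cpd6 mice lay below all other mice, and the log2 fold change against vehicle was -0.59 ± 0.06 (SE, adjusted p = 5.84e-05, limma). Elovl4 had 11.64, 11.83, 11.76 and 11.67 in Cpd6 mice and 12.10, 12.00, 12.05 and 11.93 in Cpd18 mice, against 11.98, 12.02, 12.06 and 11.99 in vehicle mice. Here too the Cpd6 mice lay below all others, with a log2 fold change of -0.29 ± 0.06 (adjusted p = 0.00762, limma). Elovl7 had 9.83, 10.02, 10.16 and 9.94 in Cpd6 mice and 10.22, 10.35, 10.55 and 10.48 in Cpd18 mice, against 10.42, 10.43, 10.38 and 10.59 in vehicle mice. Every Cpd6 mouse was lower than every other mouse, with a log2 fold change of -0.47 ± 0.09 (adjusted p = 0.00613, limma).

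Elovl3 had 8.17, 8.53, 8.60 and 8.18 in Cpd6 mice and 8.77, 9.14, 8.83 and 9.09 in Cpd18 mice, against 8.70, 8.80, 8.75 and 9.42 in vehicle mice. The groups did not overlap, but 1 vehicle mouse stood far above the other 3. The log2 fold change was -0.55 ± 0.16 (SE, adjusted p = 0.0386, limma), and without that mouse it was -0.38 (adjusted p = 0.101). The call was also lost without Cpd6 replicate 1 or 4. Elovl6 did not differ from vehicle beyond the spread in this study, with log2 fold changes of -0.08 (95% interval -0.23 to 0.07) and 0.05 (-0.12 to 0.22) for its 2 probesets, and Elovl1 had -0.10 (-0.41 to 0.22). The hair follicle markers of Cpd6 mice averaged 4.91 ± 0.84, against 7.80 ± 2.06 in Cpd18 mice and 8.33 ± 2.63 in vehicle mice. With their level as a covariate, Elovl4 and Elovl5 were called while Elovl3 had a log2 fold change of -0.40 (adjusted p = 0.316) and Elovl7 -0.38 (adjusted p = 0.0950). Sebaceous markers were lower with Cpd6 for 7 of 14 genes, beside 6.17% of all tested probesets. Macrophage markers averaged 7.51 in Cpd6 mice and 7.63 in Cpd18 mice against 8.29 in vehicle mice. Of 8 macrophage genes, 7 were called lower with Cpd6 and 0 with Cpd18, beside 6.17% and 0.00347% of all tested probesets. The part of these cell types in the Elovl values was not tested.

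With Cpd18, no Elovl probeset was called against vehicle (0 of 7, and 0 of 7 at an unadjusted p under 0.05), beside 0.00347% of all tested probesets. The log2 fold changes lay between -0.05 for Elovl7 and 0.08 for the AK029029 probeset of Elovl6, with a lowest adjusted p of 0.836 (limma). The interval for Elovl5 was -0.11 to 0.14 and that for Elovl4 was -0.11 to 0.13. For Elovl3 it was wider, -0.29 to 0.37.

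**Figure D2:**
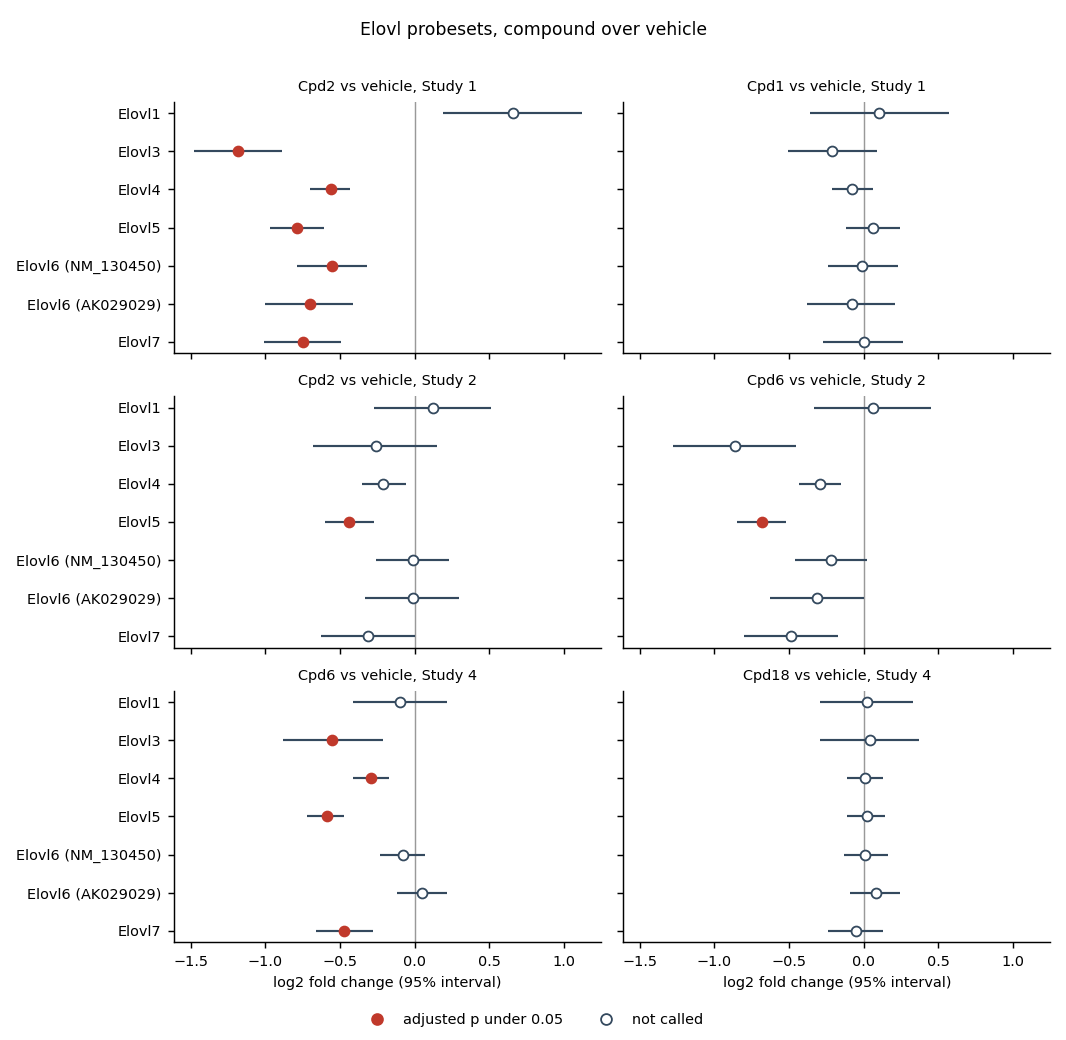
Log2 fold change of each tested Elovl probeset, compound over vehicle, with 95% intervals (horizontal axis), in the 6 comparisons with vehicle. Filled points passed an adjusted p of 0.05 and open points did not. Cpd2 in Study 1 lowered 6 probesets and Cpd6 in Study 4 lowered 4, whereas Cpd1 and Cpd18 lowered 0.

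Compounds given at the same dose in 1 study were also compared directly, which made 2 pairs, with p-values further adjusted over both. Skin-positive Cpd6 against skin-negative Cpd18 in Study 4 gave 2 of 7 Elovl probesets lower, beside 0.490% of all tested probesets called and 0.441% called lower. Elovl5 differed by -0.61 ± 0.06 on the log2 scale (SE, limma, adjusted p = 3.99e-05, and 7.98e-05 over both pairs). Elovl4 differed by -0.29 ± 0.06 (adjusted p = 0.0256, and 0.0468 over both pairs), a call that passed in 9 of 20 alternative settings. Elovl7 with -0.42 (adjusted p = 0.0520) and Elovl3 with -0.59 (adjusted p = 0.148) did not pass, although all Cpd6 mice lay below all Cpd18 mice for both. The Elovl6 intervals were -0.24 to 0.05 and -0.19 to 0.14, and the Elovl1 interval was -0.43 to 0.20.

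The 2 skin-positive compounds, Cpd2 and Cpd6 in Study 2, did not differ beyond the threshold for any Elovl probeset (0 of 7 by limma, 2 of 7 at an unadjusted p under 0.05), beside 0% of all tested probesets. Elovl5 was nevertheless higher in each Cpd2 mouse than in each Cpd6 mouse, with a difference of 0.25, a 95% interval of 0.08 to 0.41 and an adjusted p of 0.390 (0.279 over both pairs). Elovl3 differed by 0.60, with an interval of 0.19 to 1.01 and an adjusted p of 0.403 (0.293 over both pairs). It had 8.65, 8.78, 8.96 and 9.54 in Cpd2 mice, and 1 of these lay above all vehicle mice. For the other 5 probesets the intervals ran from -0.33 for the lowest bound to 0.62 for the highest.

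The effect of Cpd2 was larger in Study 1 than in Study 2 in point estimate for each of the 6 probesets that fell in Study 1, but the difference between studies did not pass the threshold for any (0 of 7 by limma, 6 of 7 at an unadjusted p under 0.05), beside 0.726% of all tested probesets. Elovl3 had the largest difference in size, -0.92 ± 0.25 (SE, adjusted p = 0.0563), and Elovl4 had -0.36 ± 0.10 (adjusted p = 0.0562). For Elovl6 the differences were -0.54 (adjusted p = 0.0937) and -0.69 (adjusted p = 0.0940). Without vehicle replicate 4 of Study 1, which was low in several members, 5 of 7 differences were called, beside 1521 of all 28789 tested probesets against 209 with all mice. The effect of Cpd6 in Study 2 minus that in Study 4 lay between -0.36 and 0.16 for the 7 probesets, with 0 called (0 of 7 also at an unadjusted p under 0.05), beside 0% of all tested probesets. For Elovl5 this difference was -0.09, with an interval of -0.39 to 0.20, and for Elovl4 it was -0.01, with an interval of -0.23 to 0.22.

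**Figure D3:**
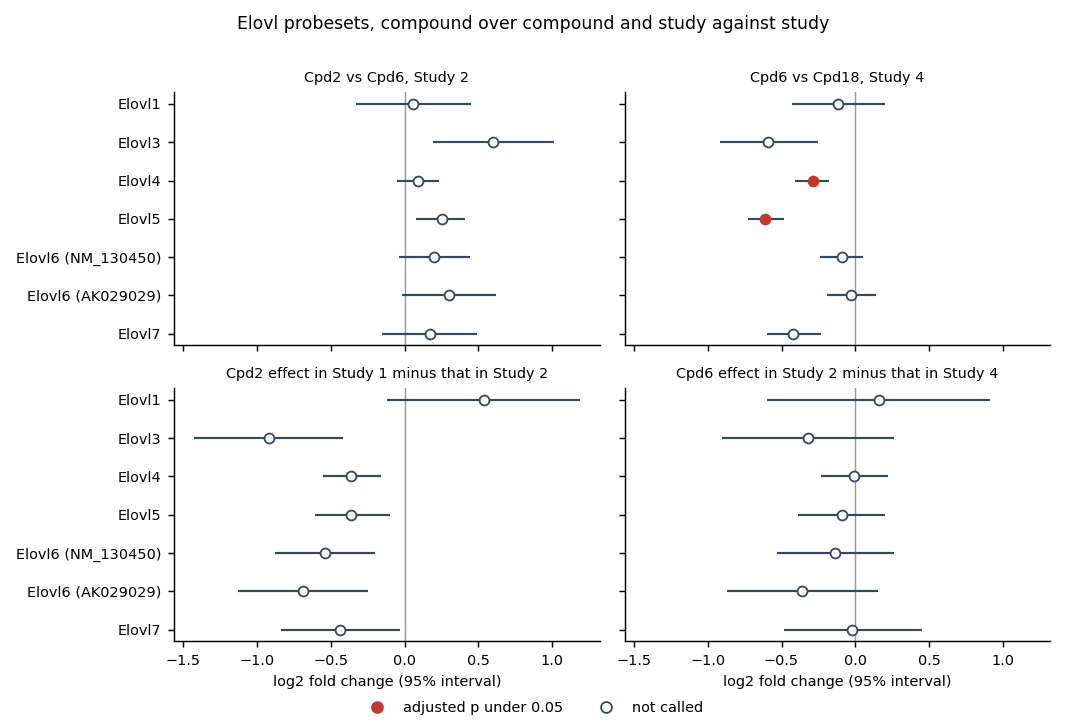
Log2 fold change of each tested Elovl probeset with 95% intervals (horizontal axis) for Cpd2 over Cpd6 in Study 2 and Cpd6 over Cpd18 in Study 4, and the difference in the effect of 1 compound between 2 studies. Filled points passed an adjusted p of 0.05. Only Elovl4 and Elovl5, in Cpd6 over Cpd18, are filled.

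The elongation cycle needs 3 further enzymes, a ketoreductase, a dehydratase and an enoyl reductase. Of 7 genes listed for these steps, 5 were tested. Tecr, the enoyl reductase, was not matched to a probeset and Tecrl was below the limit. With Cpd2 in Study 1, 4 of 5 were lower, where 6.00% of all tested probesets were lower. The median log2 fold change was -0.39, against 0.04 for all tested probesets. In log2 fold change, the ketoreductase Hsd17b12 had -0.39 ± 0.12 (SE, limma, adjusted p = 0.0352). Of the dehydratases, Hacd1 had -0.42 ± 0.13 (adjusted p = 0.0269), Hacd2 -0.39 ± 0.10 (adjusted p = 0.00805) and Hacd3 -0.27 ± 0.05 (adjusted p = 0.000328), while Hacd4 had -0.05 and was not called. With Cpd6 in Study 4, Hsd17b12 and Hacd2 were lower, at -0.36 and -0.24. In Cpd6 against Cpd18 the same 2 genes were lower, at -0.43 and -0.37. Of all tested probesets, 6.17% and 0.441% were lower in these 2 comparisons. None of the 5 was called with Cpd1, with Cpd18 or in Study 2, where Hsd17b12 had -0.35 with Cpd6 (adjusted p = 0.213). In those comparisons at most 0.379% of all tested probesets were called. Hacd1 is also made in skeletal muscle, whose markers were lower in the same Cpd2 mice, and the part of muscle in its value was not tested.

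Of 15 genes of fatty acid synthesis and desaturation, which supply the chains, 8 were lower, 0 higher and 7 not called with Cpd2 in Study 1, with a median of -0.44, where 6.00% of all tested probesets were lower. The 8 were led by Scd3, a desaturase of sebaceous glands, at -3.68, Acss2, which makes acetyl-CoA from acetate, at -1.14, Acacb, an acetyl-CoA carboxylase, at -1.10, and Fasn, the fatty acid synthase, at -0.82. With Cpd6 in Study 4, Scd3 (-2.11) and Acss2 (-0.64) were lower and Scd4, another stearoyl-CoA desaturase, was higher at 2.08. In Study 2 only Scd3 was called, at -1.81 with Cpd2 and -2.37 with Cpd6. Scd3 is, as Elovl5, a marker that the study chose on Study 1 and Study 2.

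Other lists hold genes that use the chains. Of 9 genes of wax, sterol ester and triglyceride synthesis, 4 were lower with Cpd2 in Study 1 and 3 with Cpd6 in Study 4, and 0 were higher in either, where 6.00% and 6.17% of all tested probesets were lower. Awat1, a wax synthase of sebaceous glands, was lower in both, at -1.03 and -0.98. It was also called lower with Cpd6 in Study 2, where no other gene of this list was. That call, at -1, lay at the threshold, with an adjusted p that rounds to 0.05 (limma). Far1, which reduces acyl-CoA to the fatty alcohols of wax, was lower at -0.57 with Cpd2 and -0.46 with Cpd6, and Awat2, a second wax synthase, was lower with Cpd6 in Study 4 at -0.87. Of 16 genes that take up very long chains in ceramide and acylceramide synthesis, 6 were higher, 3 lower and 7 not called with Cpd2 in Study 1, where 13.1% of all tested probesets were called. The difference between the lists was not tested. Alox12b and Aloxe3, the lipoxygenases that process acylceramides for the barrier, rose by 1.17 and 1.09, and Cers3, the ceramide synthase for the longest chains, rose by 0.77. The lower ones were Cers5 (-1.25) and Cers4 (-0.84), ceramide synthases, and Cyp4f39 (-0.57), an acyl hydroxylase. With Cpd6 in Study 4, Degs2, which hydroxylates ceramide, was higher at 1.89, Cers6 was higher at 0.30 and Cers5 was lower at -1.12. Beside these counts, markers of differentiated keratinocytes, which make the barrier lipids, were higher for 6 of 11 genes with Cpd2 in Study 1. There 2041 of all 28789 tested probesets were higher. None of the genes in the lists of lipid pathways was called with Cpd1 or Cpd18, beside 0.327% and 0.00347% of all tested probesets.

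**Figure D4:**
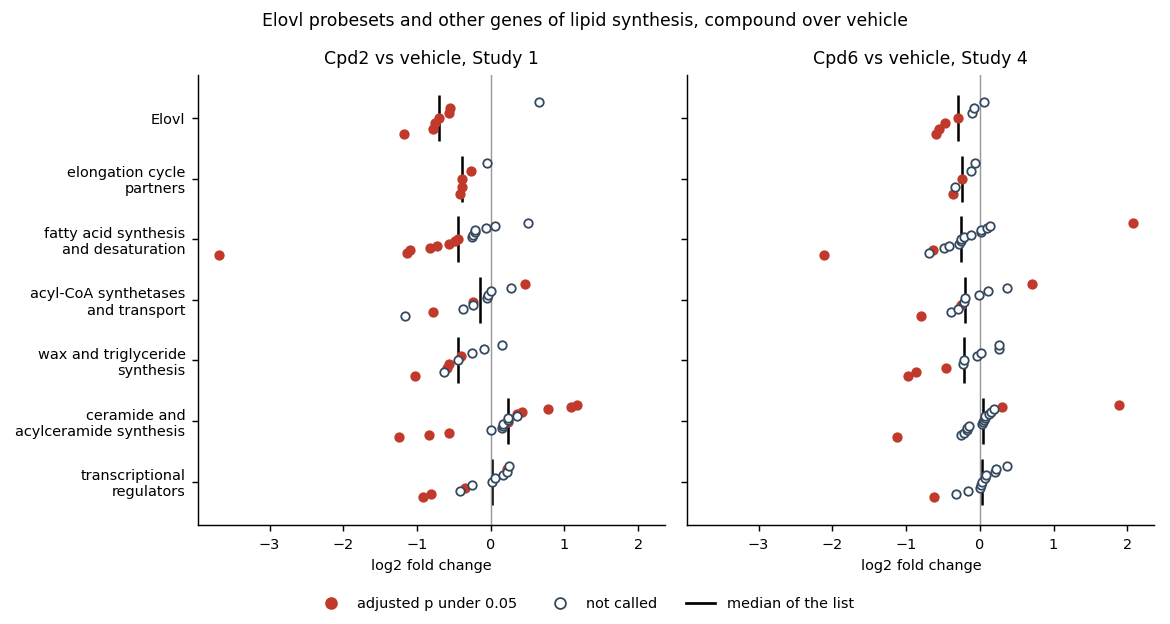
Log2 fold change (horizontal axis) of the Elovl probesets and of the genes of 6 lists of lipid genes, for Cpd2 over vehicle in Study 1 and Cpd6 over vehicle in Study 4. Filled points passed an adjusted p of 0.05, open points did not, and the black line is the median of the list. The Elovl median was -0.70 with Cpd2 in Study 1, against -0.39 for the elongation cycle partners and 0.23 for ceramide and acylceramide synthesis.

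Finally, the genes whose values over the 48 mice were most like each elongase were listed, after the vehicle mean of its study had been taken from each mouse. The correlation after removal of all group means is given second, since the first holds the compound effects. These are descriptions over mice that share studies, groups and arrays. For Elovl5 the nearest were Ces4a (r = 0.980 and 0.875), Pnpla5 (0.975 and 0.829) and Cyp2j12 (0.967 and 0.861), which are marker genes of the study too. For Elovl3 they were Slc27a4, a fatty acid transport protein of the epidermis (0.942 and 0.883), Cers4 (0.932 and 0.814) and Sdr42e1 (0.927 and 0.778). For Elovl4 they were Tmem86a (0.943 and 0.699), the dehydratase Hacd2 (0.926 and 0.703) and Tmem164 (0.925 and 0.733). For Elovl6 they were Cers4 (0.876 and 0.778), Secisbp2l (0.846 and 0.703) and Bche (0.840 and 0.741), and for Elovl7 they were Snap91 (0.916 and 0.814), Awat1 (0.913 and 0.820) and Pnpla5 (0.910 and 0.775).

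The members also resembled each other. The 2 probesets of Elovl6 had r = 0.952, and 0.921 after removal of group means, which is the closeness of 2 readings of 1 gene. Between genes, Elovl4 and Elovl5 had 0.904 and 0.720, Elovl5 and Elovl7 0.887 and 0.699, and Elovl3 and Elovl4 0.875 and 0.537. Elovl1 ran the other way, with -0.613 and -0.403 against Elovl6 (NM_130450). Its spread was widest in Cpd1 mice of Study 1 (SD 0.75), where 1 mouse had 4.08 and the next 5.48. The part of that mouse in the Elovl1 correlations was not tested. Within groups, the mean of the 14 sebaceous gland markers followed Elovl7 (r = 0.830) and Elovl5 (0.750) more closely than Elovl3 (0.589), Elovl4 (0.526) or Elovl1 (-0.144), a difference between correlations that was not tested. The Elovl6 probesets had 0.506 (NM_130450) and 0.579 (AK029029) with these markers. With the mean of the skeletal muscle markers they had 0.597 and 0.581. Elovl5 had 0.634 with the muscle markers, Elovl7 0.38, Elovl4 0.344, Elovl3 0.195 and Elovl1 -0.258. The muscle level varied most in Cpd2 mice of Study 1 (SD 2.38), against SDs of 0.06 to 0.68 in the other groups. The correlations with muscle therefore weigh that group most, and they were not taken without it. Elovl4 within groups was nearer to the adipocyte markers (0.688) and ran against the hair follicle markers (-0.531). Vehicle replicate 4 of Study 1 was the lowest of its group in Elovl4 (12.18) and in adipocyte level (9.19). It was also the highest in hair follicle level (10.61), and its part in these 2 correlations was not tested.

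**Figure D5:**
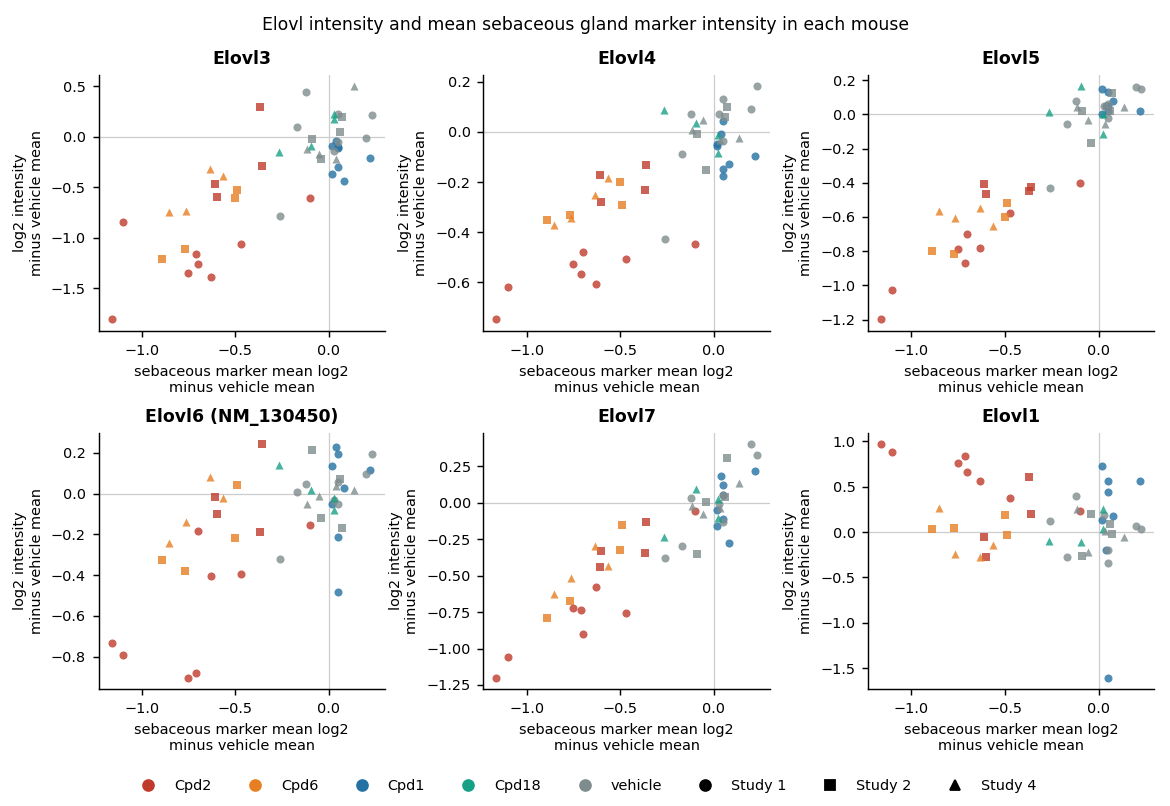
Log2 intensity of 6 Elovl probesets (vertical axes) against the mean log2 intensity of 14 sebaceous gland markers (horizontal axes) in each of the 48 mice, both minus the vehicle mean of the study. Colours are compounds and shapes are studies. Most mice given Cpd2 or Cpd6 lie to the lower left of the vehicle mean for Elovl3, Elovl4, Elovl5, Elovl6 and Elovl7, with some overlap with vehicle mice on both axes. For Elovl1, the Cpd2 mice of Study 1 lie above that mean, while Cpd6 mice of Study 4 averaged 6.21 against 6.31 with vehicle. In Study 2 the Elovl1 log2 fold changes were 0.12 with Cpd2 and 0.06 with Cpd6.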

How the data were processed

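Skin RNA of 48 mice was measured on custom Affymetrix arrays, 1 array per mouse. The deposited values are linear probeset intensities, summarised by the authors with RMA, whose version is not given in the sources used here. The table holds 38385 probesets, of which the probe annotation gives 24478 a single gene, 65 several and 13842 none. Groups came from the sample labels. The methods leave out probesets called absent, which needs probe data, so here the dimmest were left out, by a mean over all arrays below the 25th percentile (2.93 on the log2 scale), and 28789 remained.

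Each study was fitted on its own in R 4.3.3 (limma 3.58.1, trend on), on log2 intensities and with a mean for every group. The Benjamini-Hochberg method was applied to all 28789 p-values of a comparison, and adjusted values under 0.05 were called. Differences between studies came from 1 fit over all 48 arrays. The fit was tested on simulated data. The number of arrays limits the precision.

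All Elovl1 to Elovl7 probesets were described, with the 3 most correlated genes of each called elongase, up to 4 called genes of each pathway list with the largest changes, all elongation cycle partners, and Dgat1. For list genes with several probesets the brightest was used. The members and lists were chosen with earlier results of these data known, and Scd3, Awat1 and Awat2 stand in both a pathway list and the sebaceous list. Alternatives were other filters, scalings, weights, fits, a replicate block, the methods' t-test (in place of the one-way ANOVA they name) and leaving out each mouse. A muscle or hair follicle covariate and leaving out the 3 mice low in muscle markers were added after seeing the data. Promoters came from RefSeq (GRCm38.p6) and were matched by symbol for 6 of 7 genes. Python 3.11.15, pandas 2.3.3, numpy 2.4.6 and matplotlib 3.10.9 were used.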

Additional observations from a re-analysis of the deposited data

Results flagged for a closer look

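Of 72 sets of values, each 1 Elovl probeset in 1 group, 6 held a mouse far from the others of its group, and chance flags about 1 in 20 groups. The same animal accounted for 3 of the 6, vehicle replicate 4 of Study 1, which was low in Elovl4 (12.18, the next mouse 12.52), Elovl5 (12.39, the next 12.76) and the AK029029 probeset of Elovl6 (11.04, the next 11.57). This mouse also had the lowest skeletal muscle level (9.80) and adipocyte level (9.19) and the highest hair follicle level (10.61) of its group. Without it, Cpd2 in Study 1 had 7 Elovl probesets called in place of 6, Elovl1 joining with a log2 fold change of 0.68 (adjusted p = 0.0472, limma), beside 5103 of all 28789 tested probesets called against 3769 with all mice. Elovl3 was high in vehicle replicate 4 of Study 4 (9.42, the next 8.80). Elovl1 was low in Cpd1 replicate 4 of Study 1 (4.08, the next 5.48), and without that mouse the log2 fold change with Cpd1 was 0.35 (adjusted p = 0.408). Elovl2, which was not tested, was high in Cpd6 replicate 3 of Study 2 (2.92, the next 2.36).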

How the results depend on the processing

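Over 70 results for single probesets and 1659 values under the alternatives, 1577 kept their direction and their side of the threshold, 40 lost a call, 42 gained one and 0 reversed. The scalings moved the median of all probesets by at most 0.04 in size. For Cpd2 against vehicle in Study 2, 1 Elovl probeset was called, but 0 were with array medians set equal, without the intensity trend, in 1 fit over all 48 arrays, with the methods' t-test or with the muscle or hair follicle covariate. For Cpd6 in Study 2, 1 became 2 with quantile normalization, 4 with array weights, 2 in 1 fit over 48 arrays and 0 with the t-test. For Cpd6 against vehicle in Study 4, 4 became 2 in 1 fit over 48 arrays and 2 with the hair follicle covariate. For Cpd6 against Cpd18, 2 became 1 with equal medians, without the trend, in 1 fit over 48 arrays or with only the 2 groups, and 0 with the t-test. For the difference of Cpd2 between Study 1 and Study 2, 0 became 1 with a 50th percentile filter, 2 with equal medians and 5 with array weights. For Elovl6 with Cpd2 in Study 1 the causes of the lost calls were not tested.

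Leaving out 1 mouse at a time gave 6 to 7 called for Cpd2 in Study 1, 0 to 1 for Cpd2 and 1 to 2 for Cpd6 in Study 2, 3 to 4 for Cpd6 in Study 4, 1 to 3 for Cpd6 against Cpd18 and 0 to 5 for the difference between studies. Over all tested probesets the matching counts were 2872 to 5103, 14 to 257, 39 to 598, 1305 to 3007, 95 to 239 and 26 to 1521. Elovl5 with Cpd2 in Study 2 was lost without any of the 4 Cpd2 mice and without vehicle replicate 2 or 3 (adjusted p up to 0.184). The difference of Cpd2 between studies had 1 or more called without Cpd2 replicate 1, 6 or 8 or vehicle replicate 4 of Study 1 or Cpd2 replicate 4 of Study 2. Elovl4 in Cpd6 against Cpd18 was lost without Cpd18 replicate 2 or 3 or Cpd6 replicate 1, 3 or 4. Calls were gained for Elovl1 with Cpd2 in Study 1 when vehicle replicate 4 or 8 or Cpd2 replicate 1 or 8 was left out, for Elovl4 with Cpd6 in Study 2 without vehicle replicate 4, and for Elovl7 in Cpd6 against Cpd18 without Cpd18 replicate 1 or Cpd6 replicate 3.

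No label ties same-numbered mice to a litter or batch, and the correlations of their deviations did not all exceed 0.1. They had a median of -0.04 over 24 pairs in Study 1, -0.03 over 12 in Study 2 and 0.11 over 12 in Study 4, where 7 of 12 exceeded 0.1, so a shared source of variation in Study 4 was not settled. With the replicate number as a block, Cpd2 in Study 2 had 0 called and Cpd6 against Cpd18 had 1, the log2 fold change of Elovl5 being -0.44 (adjusted p = 0.150) and that of Elovl4 -0.29 (adjusted p = 0.0520), and 2 of 70 results changed side. The background moved too. All probesets called for Cpd6 in Study 2 numbered 109, but 1081 with array weights, 231 in 1 fit over 48 arrays and 3 with the t-test. For Cpd2 in Study 2 they numbered 37, but 16 without the trend or with the block and 1 with the t-test. For Cpd6 in Study 4 they numbered 3090, but 943 in 1 fit and 406 with the hair follicle covariate. For Cpd6 against Cpd18 they numbered 141, but 14 with the t-test, and for the difference between studies 209, but 1931 with weights and 327 with equal medians. Of 70 list medians, 4 moved beyond their spread, by at most 0.15.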

Other observations

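Of 10 tested genes listed for fatty acid breakdown in peroxisomes, 4 were lower with Cpd2 in Study 1 and 3 with Cpd6 in Study 4. In Study 2, 3 were lower with Cpd6 and 1 with Cpd2, and 0 were called higher in any of these 4 comparisons. All tested probesets were called lower in 6.00%, 6.17%, 0.288% and 0.0868% of cases in those 4 comparisons. The 4 lower with Cpd2 in Study 1 were Abcd3, Acox2, Acox3 and Crat, and only Acox2 was called in all 4 comparisons. Acox2, the branched-chain acyl-CoA oxidase, had log2 fold changes of -1.78 in the Cpd2 comparison of Study 1 and -1.61 in the Cpd6 comparison of Study 4, and Acox3 had -1.23 and -0.86 there (limma, all called). Acox2 and Crat are markers that the study chose on Study 1 and Study 2, as is Cers5 under its older name. Among 11 regulators of lipid synthesis, Insig2, which retains the SREBP factors in the endoplasmic reticulum, fell by 0.81 with Cpd2 in Study 1 and by 0.62 with Cpd6 in Study 4, and Mlxipl, which encodes the carbohydrate response factor ChREBP, fell by 0.92 with Cpd2 in Study 1. Mlxipl was not called in the other comparisons and had 0.37 with Cpd6 in Study 4. Insig1, which retains the SREBP factors as Insig2 does, fell by 0.35 with Cpd2 in Study 1 (adjusted p = 0.00298, limma). Srebf2, which encodes SREBP-2, rose by 0.22 with Cpd2 in Study 1. Of 10 acyl-CoA synthetases and transport proteins, Slc27a4 (-0.79) and Acsl5 (-0.24) were lower and Slc27a3 (0.47) was higher with Cpd2 in Study 1, while Acsl3 (-0.80) and Acsl5 (-0.26) were lower and Slc27a1 (0.71) was higher with Cpd6 in Study 4.

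In the comparisons of Cpd2 in Study 1 and Cpd6 in Study 4, 13.1% and 10.7% of all tested probesets were called. Called higher were 2041 and 1314 of 28789, and called lower were 6.00% and 6.17%. Of the marker lists not given above, 9 adipocyte genes were tested and 0 of them were called with Cpd2 in Study 1 or with Cpd6 in Study 4. Of 7 fibroblast genes, 0 and 2 were called, and of 5 basal keratinocyte genes, 3 were higher in each. Of 8 Hox genes of body position, 1 was higher with Cpd2 in Study 1 and 1 was lower with Cpd6 in Study 4.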
